A study of Homo sapiens with 6 samples.

Results

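Genes of lactate and pyruvate handling were followed through 6 RNA-seq libraries of 2 human pancreatic cancer cell lines. The group holds 10 genes, read by their symbols from a table of 41764 genes with a unique symbol: the lactate dehydrogenase subunits LDHA and LDHB, the monocarboxylate transporters SLC16A1 and SLC16A3, the mitochondrial pyruvate carrier subunits MPC1 and MPC2, the pyruvate dehydrogenase subunit PDHA1, and the pyruvate dehydrogenase kinases PDK1, PDK2 and PDK3. All 10 were found in the table.

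Pyruvate, the end product of glycolysis, can be reduced to lactate in the cytosol or burned in mitochondria. Lactate dehydrogenase is a tetramer of A and B subunits, of which A-rich forms are known for turning pyruvate into lactate and B-rich forms for the reverse step. Lactate leaves or enters the cell through monocarboxylate transporters, while pyruvate reaches pyruvate dehydrogenase through the mitochondrial carrier and pyruvate dehydrogenase kinases switch that enzyme off by phosphorylation. Pancreatic cancer cells are known for high glycolytic activity and lactate release.

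Poly(A)-selected RNA was sequenced from the pancreatic ductal adenocarcinoma line PANC-1 and from a line of the same cancer named 90. In each line 1 library is labelled NC and 2 are labelled siALDOA, here siALDOA 1 and siALDOA 2, so there are 4 groups: NC of 90, siALDOA of 90, NC of PANC-1 and siALDOA of PANC-1. The label siALDOA is taken to mean an siRNA directed at ALDOA, the gene of the glycolytic enzyme aldolase A. What the name 90 and the letters NC mean, the time after treatment, and whether the numbers mark different siRNAs or repeats were not given in the labels used here. The labels do not state separate cultures for libraries of the same group. The p-values therefore reflect a spread among libraries that may be technical, and each line has a single NC library.

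Levels are FPKM, fragments per kilobase of a gene's length per M sequenced fragments (M for mega). They take account of gene length but not of GC content, so levels and shares of different genes can be compared only roughly. The libraries held 17.8 to 21.8 M fragments. ALDOA was at 36.1% and 43.8% of its NC level in siALDOA 1 and 2 of 90 and at 55.3% and 51.0% in those of PANC-1. All 6 epithelial markers looked at were at 1 FPKM or more in both lines, but their levels differed. KRT7 was at 905 to 1350 FPKM in 90 and 6.24 to 11.5 in PANC-1. EPCAM was at 88.55 to 154 and 7.51 to 17.5 FPKM, and CDH1 at 37.95 to 44.5 and 1.18 to 2.05. KRT19 was also lower in each PANC-1 library, whereas KRT8 was higher and KRT18 overlapped. The endothelial markers PECAM1 and CDH5 summed to 3.51 to 3.75 FPKM in 90 and to 0 to 0.0201 in PANC-1, nearly all of it CDH5, which was listed at 0 in each PANC-1 library; their part in the differences between the lines was not tested. Fewer cells of a kind and less RNA per cell cannot be told apart in such bulk libraries.

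The lines differed in the mRNA make-up of lactate dehydrogenase, with LDHA the larger part in every library. LDHA was abundant in both, whereas LDHB was abundant in PANC-1 and almost absent from 90. LDHA, the A subunit (ENSG00000134333.13, plus strand of chromosome 11 from 18394388 to 18408425, GRCh38 with GENCODE release 29), was at 373, 314 and 330.5 FPKM in NC, siALDOA 1 and siALDOA 2 of 90. The PANC-1 libraries had 579.6, 620.1 and 568 FPKM. Every PANC-1 library lay above every library of 90, with means of 339 ± 30.3 FPKM in 90 and 589 ± 27.4 in PANC-1 (SD, n = 3 libraries). Here and below, means and differences of the lines take 1 NC and 2 siALDOA libraries of each line together. They do not describe the NC state alone, and an SD over these libraries includes any siALDOA effect.

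LDHB, the B subunit (ENSG00000111716.12, minus strand of chromosome 12 from 21635342 to 21757857), was at 0.987, 0.533 and 0.239 FPKM in NC, siALDOA 1 and siALDOA 2 of 90. These levels rest on 27, 16 and 7 fragments, with 95% exact Poisson intervals, which cover counting error only, of 0.651 to 1.44, 0.305 to 0.866 and 0.0961 to 0.492 FPKM. In PANC-1 LDHB was at 343, 198 and 394 FPKM, from 10891, 6648 and 11361 fragments. The lines were far apart in all libraries, at a mean of 0.587 ± 0.377 FPKM in 90 and 312 ± 102 in PANC-1 (SD, n = 3). In PANC-1 NC the gene ranked 216 from the top of the table, and in NC of 90 it ranked 11368.

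On log2(FPKM + 1), limma gave a difference of PANC-1 less 90 of 7.59 for LDHB (SE 0.295), 193-fold on that scale, and of 0.80 for LDHA (SE 0.115, adjusted p = 0.00518), 1.74-fold. LDHB entered the test through its level in PANC-1 alone, so its call was fixed by the choice of genes and is a description. The 1 added before the logarithm understates its size. The LDHA call was lost after median ratio scaling (0.67, adjusted p = 0.123) and after a correction for GC content (0.70, adjusted p = 0.112), with PANC-1 still higher, and held without any given library.

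Because both subunits are read within a library, the make-up of the enzyme's mRNA does not move with library scaling. LDHB gave 0.264%, 0.17% and 0.0723% of the summed LDHA and LDHB level in NC, siALDOA 1 and siALDOA 2 of 90. It gave 37.2%, 24.2% and 41.0% in PANC-1. The means were 0.169% ± 0.096 and 34.1% ± 8.80 (SD, n = 3), and the lines did not overlap. The exact permutation test over libraries gave p = 0.1, two-sided, the smallest that 20 choices allow, and an adjusted p of 0.2 over the 4 such shares compared here. The summed level of both subunits was 315 to 374 FPKM in 90 and 818 to 962 FPKM in PANC-1.

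**Figure D1:**
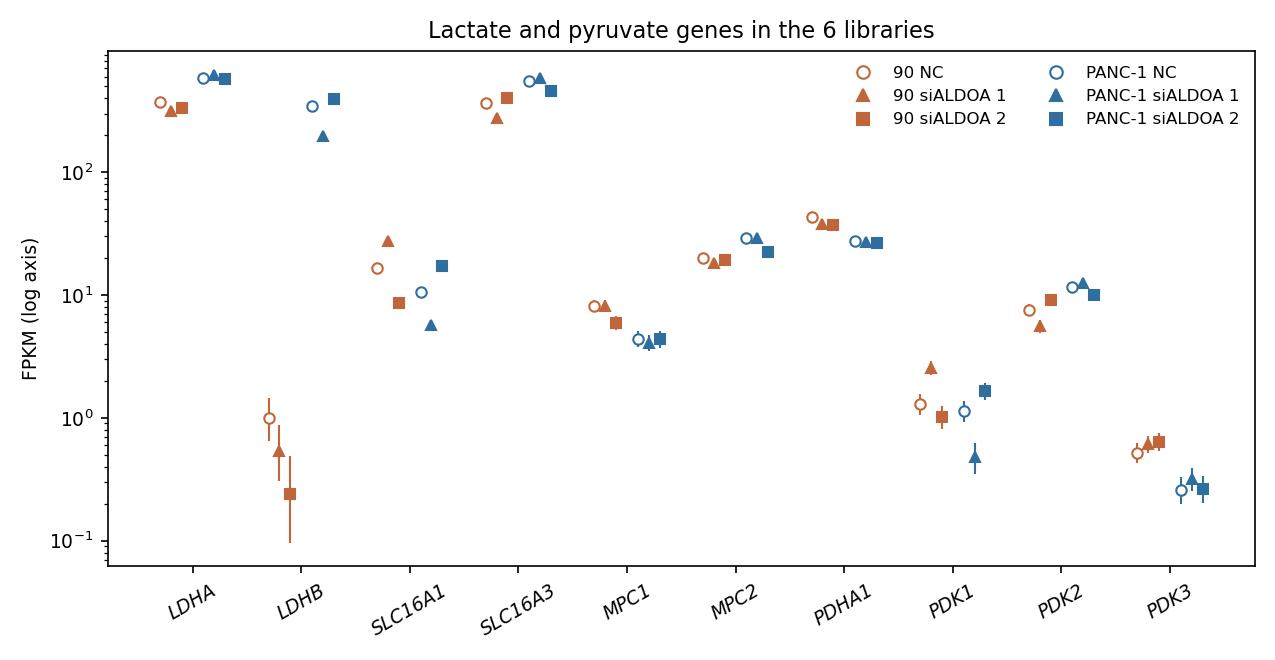
Level of each of the 10 genes in the 6 libraries, in FPKM on a log axis; open circles are NC, triangles siALDOA 1 and squares siALDOA 2, in orange for 90 and blue for PANC-1, and bars are 95% exact Poisson intervals. LDHB lies between 0.239 and 0.987 FPKM in 90 and between 198 and 394 FPKM in PANC-1, while LDHA is at 314 FPKM or more in every library.

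LDHB had the largest difference between the lines among the tested genes of the group. The 250 bases before the RefSeq transcription starts of LDHB and of its partner LDHA are shown, 5′ to 3′ on the gene's strand (GRCh38.p14). Capitals mark each CG dinucleotide, the base pair step that can carry DNA methylation and reads the same on both strands. For LDHA the most upstream of 2 listed starts is used, at chr11:18394313-18394562 on the plus strand, and the LDHB stretch is chr12:21657843-21658092 on the minus strand.
LDHA: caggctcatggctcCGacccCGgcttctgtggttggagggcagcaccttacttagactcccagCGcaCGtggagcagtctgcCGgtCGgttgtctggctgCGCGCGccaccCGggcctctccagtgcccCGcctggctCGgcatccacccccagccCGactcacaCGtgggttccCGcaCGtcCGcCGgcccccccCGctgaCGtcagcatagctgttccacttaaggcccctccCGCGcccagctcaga
LDHB: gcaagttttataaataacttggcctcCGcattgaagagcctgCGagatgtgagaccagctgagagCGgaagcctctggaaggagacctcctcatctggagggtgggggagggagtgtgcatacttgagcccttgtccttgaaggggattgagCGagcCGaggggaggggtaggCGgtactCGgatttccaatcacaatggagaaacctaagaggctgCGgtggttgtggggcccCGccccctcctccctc
The LDHA stretch holds 22 CG and the LDHB stretch 9. Of 35116 promoter stretches of this length in the RefSeq table, 93.9% hold at least 1 CG, 28% hold as many as LDHA and 54.1% as many as LDHB. Entries were found for 9 of the 10 genes. No methylation was measured here, so the counts describe the sequence only.

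Among the transporters, SLC16A3 (MCT4, known for lactate export from glycolytic cells) was far above SLC16A1 (MCT1, which carries lactate either way) in every library. SLC16A3 (ENSG00000141526.16, plus strand of chromosome 17 from 82228397 to 82261129) was at 363, 275 and 404 FPKM in NC, siALDOA 1 and siALDOA 2 of 90. PANC-1 had 555, 578.5 and 457 FPKM. The lines did not overlap, but the difference of 0.62 (SE 0.193) missed the threshold (limma, adjusted p = 0.0583). It passed in 7 of 18 alternatives, among them without siALDOA 2 of 90 (adjusted p = 0.0428) and after the GC correction (0.74, adjusted p = 0.00191). They include a crossed pairing, which matches siALDOA 1 of 90 with siALDOA 2 of PANC-1 and the reverse. They also include the fit without siALDOA 1 of 90 and siALDOA 2 of PANC-1, and both were chosen after seeing the data.

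SLC16A1 (ENSG00000155380.11, minus strand of chromosome 1 from 112911847 to 112957013) was at 16.6, 27.4 and 8.54 FPKM in NC, siALDOA 1 and siALDOA 2 of 90. Levels in PANC-1 were 10.7, 5.645 and 17.1 FPKM. The lines overlapped, and the difference of -0.59 (SE 0.565, limma adjusted p = 0.484) passed in 1 of 18 alternatives, the crossed pairing. It turned to 0.16 without siALDOA 1 of both lines. Both of these alternatives were chosen after seeing the data. An antisense gene, SLC16A1-AS1, overlaps it, and since strand use in counting is not given, its level is uncertain. SLC16A3 made up 95.6%, 90.9% and 97.9% of the summed level of both transporters in 90 and 98.1%, 99.0% and 96.4% in PANC-1, which overlap (exact permutation p = 0.2, adjusted over the 4 shares p = 0.267).

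The pyruvate carrier is built from MPC1 and MPC2 together. MPC1 was called lower in PANC-1, and MPC2, which lay higher there, was not called. MPC1 (ENSG00000060762.18, minus strand of chromosome 6 from 166364919 to 166383013) was at 8.19, 8.17 and 5.92 FPKM in NC, siALDOA 1 and siALDOA 2 of 90. In PANC-1 the levels were 4.42, 4.06 and 4.34 FPKM, below each library of 90. MPC2 (ENSG00000143158.10, minus strand of chromosome 1 from 167916729 to 167937040) was at 20.04, 18.3 and 19.1 FPKM in 90. PANC-1 had 29.3, 28.9 and 22.3 FPKM, above each library of 90.

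MPC1 was lower in PANC-1 by limma (-0.66, SE 0.186, adjusted p = 0.043). The MPC2 difference of 0.46 (SE 0.149) missed the threshold (limma, adjusted p = 0.0668), passing in 3 of 18 alternatives. These include the crossed pairing and the fit without siALDOA 1 of 90 and siALDOA 2 of PANC-1, both chosen after seeing the data. The MPC1 call was lost in 12 of 18 alternatives, with adjusted p-values of 0.24 without NC of 90, 0.126 without its siALDOA 1, 0.221 without NC of PANC-1, and 0.113 and 0.115 without siALDOA 1 or 2 of PANC-1. MPC2 made up 71.0%, 69.2% and 76.3% of the summed carrier level in 90, and 86.9%, 87.7% and 83.7% in PANC-1. The shares did not overlap, with means of 72.2% ± 3.71 and 86.1% ± 2.11 (SD, n = 3, exact permutation p = 0.1, adjusted over the 4 shares p = 0.2).

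**Figure D2:**
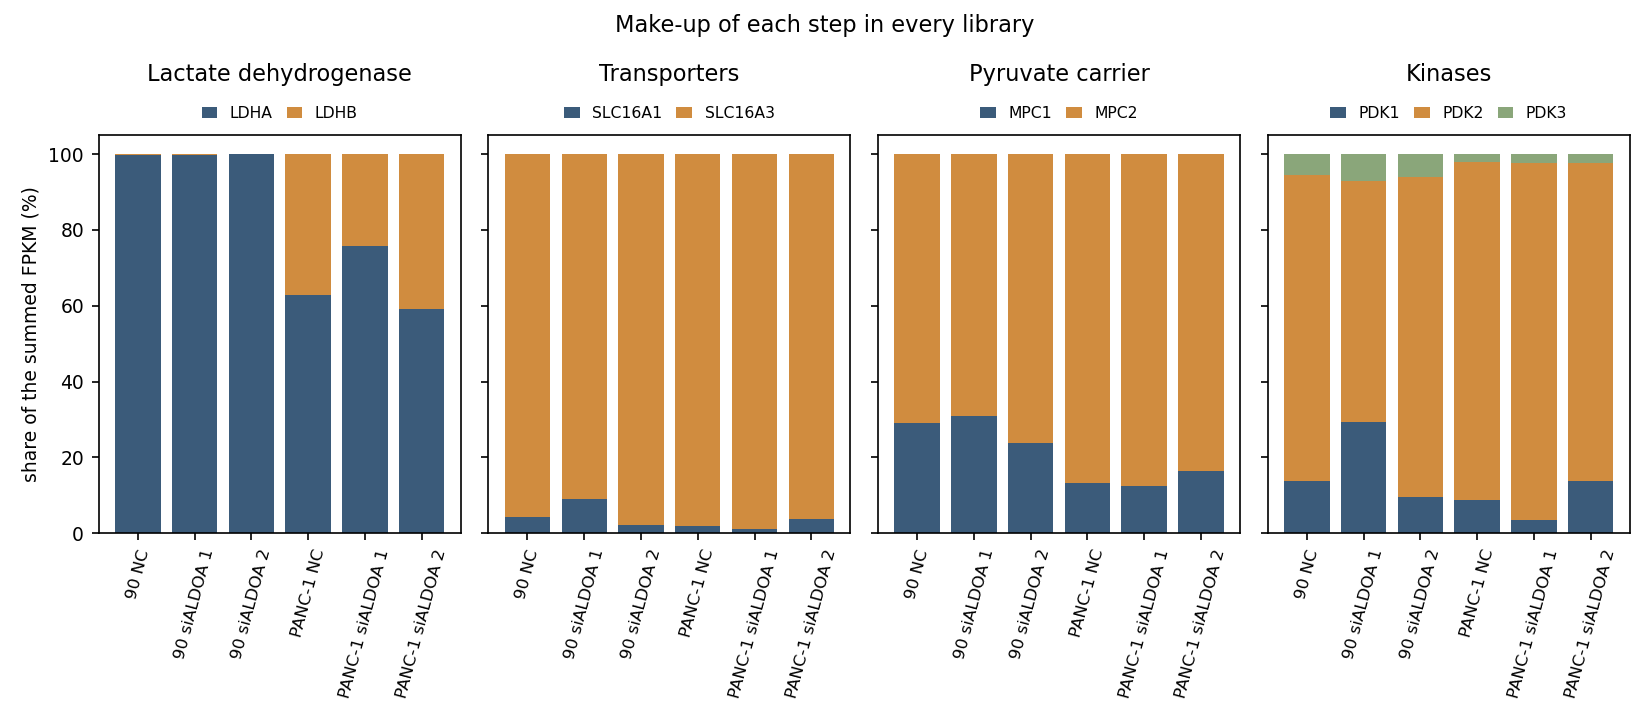
Share of each gene in the summed FPKM of its step, in percent, for the 6 libraries: lactate dehydrogenase subunits, transporters, pyruvate carrier subunits and kinases. LDHB is not visible in the 3 libraries of 90 and takes 24.2% to 41.0% in PANC-1, and MPC1 takes a larger part in 90 than in PANC-1.

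PDHA1, the catalytic alpha subunit of pyruvate dehydrogenase and the target of the kinases, was lower in PANC-1. The gene (ENSG00000131828.13, plus strand of chromosome X from 19343893 to 19361705) was at 42.8, 38.05 and 37.3 FPKM in NC, siALDOA 1 and siALDOA 2 of 90. Its PANC-1 levels were 27.4, 27.0 and 26.6 FPKM, a spread of 0.396 (SD, n = 3). The lines did not overlap, and the difference was -0.53 (SE 0.112, limma adjusted p = 0.0188), or 0.695-fold. The call was lost in 8 of 18 alternatives, with adjusted p-values of 0.102 after median ratio scaling, 0.169 without NC of 90, 0.0609 without its siALDOA 1, 0.158 without NC of PANC-1, and 0.058 and 0.0804 without siALDOA 1 or 2 of PANC-1.

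Of the kinases, PDK2 was the most abundant in every library. PDK2 (ENSG00000005882.11, plus strand of chromosome 17 from 50094737 to 50112152) was at 7.6, 5.54 and 9.05 FPKM in NC, siALDOA 1 and siALDOA 2 of 90. In PANC-1 it was at 11.7, 12.5 and 9.92 FPKM. The lines did not overlap, and the difference of 0.58 (SE 0.225) missed the threshold (limma, adjusted p = 0.106). It passed in 2 of 18 alternatives, the GC correction (0.72, adjusted p = 0.0048) and the crossed pairing, the latter chosen after seeing the data.

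PDK1, known as a hypoxia-induced kinase (ENSG00000152256.13, plus strand of chromosome 2 from 172555373 to 172608669), was at 1.29, 2.555 and 1.01 FPKM in NC, siALDOA 1 and siALDOA 2 of 90. In PANC-1 it was at 1.13, 0.475 and 1.64 FPKM. The lines overlapped, and the difference of -0.33 (SE 0.345, limma adjusted p = 0.527) turned to 0.14 without siALDOA 1 of both lines. PDK1 took 13.7%, 29.4% and 9.47% of the summed kinase level in 90 and 8.64%, 3.57% and 13.9% in PANC-1 (exact permutation p = 0.3, adjusted over the 4 shares p = 0.3).

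PDK3 (ENSG00000067992.13, plus strand of chromosome X from 24465221 to 24541862) was the lowest of the 10 genes by its mean, 0.434 FPKM, and was tested only where the filter on low values was lifted. It was at 0.52, 0.61 and 0.637 FPKM in 90, from 118 to 155 fragments, and at 0.258, 0.315 and 0.263 FPKM in PANC-1, from 63 to 88 fragments. Its lowest library of 90 lay above its highest library of PANC-1. With no filter it was called lower in PANC-1 (-0.31, limma adjusted p = 0.0491).

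Of the 9 genes tested between the lines, 2 were called higher in PANC-1 (LDHA and LDHB, the latter tested through PANC-1 alone), against 20.4% of all 12589 tested genes. Another 2 were called lower (MPC1 and PDHA1), against 18.4%. Together that is 4 of 9, beside 38.7% of all tested genes called in either direction. The lines did not overlap for 7 of the 9, and for PDK3 besides, while 54.1% of all tested genes did not overlap. The median difference of the 9 was 0.46 and that of all tested genes 0.13, which median ratio scaling brought to 0.03, and that scaling took the share of calls on the higher side from 52.6% to 43.5%. After it LDHA, MPC1 and PDHA1 were no longer called.

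**Figure D3:**
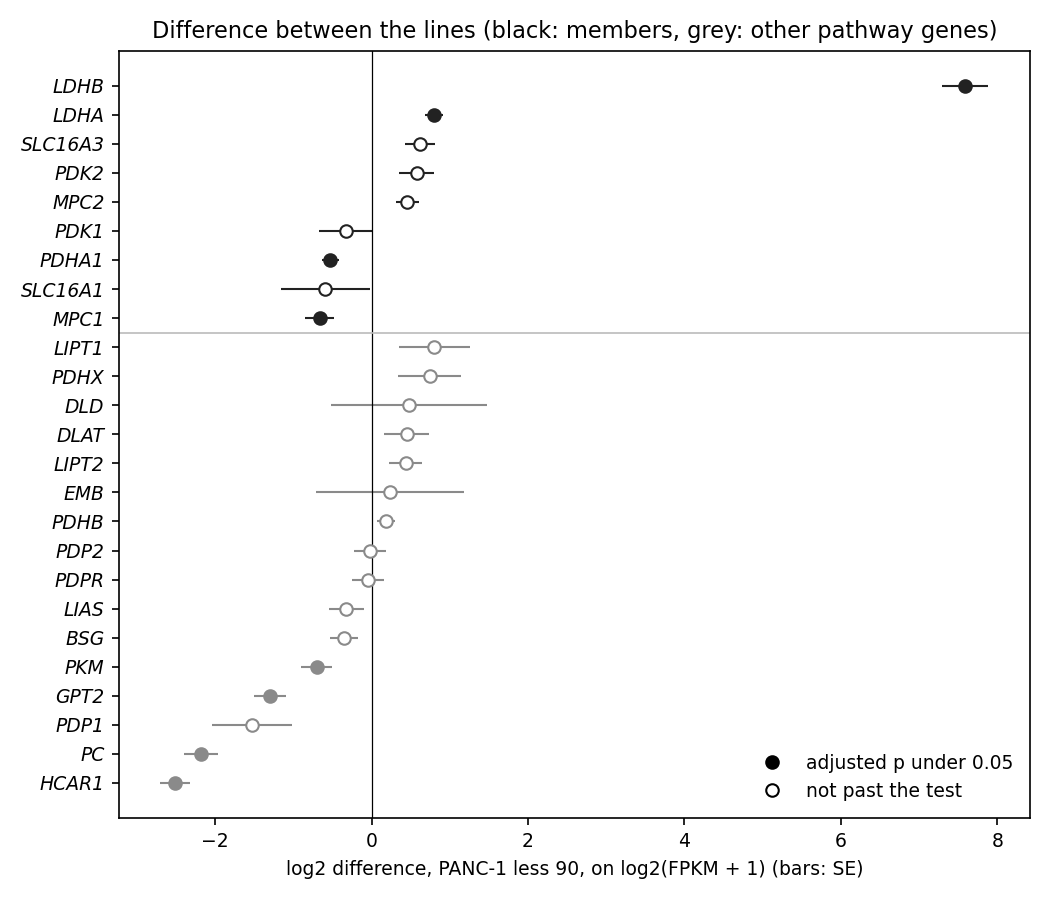
Difference of PANC-1 less 90 on log2(FPKM + 1) with its standard error, for the 9 tested genes (black) and 16 other pathway genes (grey); filled points have an adjusted p under 0.05. LDHB, tested through PANC-1 alone, stands at 7.59, and HCAR1, tested through 90 alone, at -2.51. The other differences lie between -2.18 for PC and 0.80.

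The pathway around these genes was read from a list of 28 others, of which 16 reached a mean of 1 FPKM and were tested. Between the lines 0 were called higher and 4 of 16 lower in PANC-1, beside the 20.4% and 18.4% of all tested genes given above, with a median of -0.03 against 0.13 for all tested genes. HCAR1, the cell surface receptor for lactate, was at 6.256, 5.69 and 5.70 FPKM in NC, siALDOA 1 and siALDOA 2 of 90 and at 0.0488, 0.431 and 0.179 FPKM in PANC-1, from 3, 28 and 10 fragments, a difference of -2.51 (SE 0.192). It entered the test through 90 alone, so its call too is a description. PC, pyruvate carboxylase, which feeds pyruvate into the citric acid cycle as oxaloacetate, was at 23.9, 16.9 and 25.0 FPKM in 90 and at 4.14, 4.48 and 3.41 FPKM in PANC-1 (-2.18, SE 0.213, limma adjusted p = 0.0015).

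GPT2, the mitochondrial alanine aminotransferase, which interconverts pyruvate and alanine, was at 12.1 to 14.3 FPKM in 90 and 3.78 to 6.003 in PANC-1 (-1.30, SE 0.208, limma adjusted p = 0.00727). Its adjusted p was 0.0664 without NC of 90 and 0.0593 without NC of PANC-1. PKM, the pyruvate kinase that makes pyruvate, was at 1522 to 2070.0 FPKM in 90 and 956 to 1309 in PANC-1 (-0.70, SE 0.194, limma adjusted p = 0.0415). The PKM call was lost in 8 of 18 alternatives, among them after median ratio scaling (adjusted p = 0.121), with no filter (0.085), without the intensity trend (0.0535), without NC of either line (0.201), without siALDOA 2 of 90 (0.12) and without siALDOA 2 of PANC-1 (0.13).

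The comparison of siALDOA with NC asks whether these genes moved when aldolase A was lowered. None of the 9 tested genes passed: over both lines limma called 0, as it did for 0.0% of all tested genes, and 0 of the 9 were at an unadjusted p under 0.05, beside 43 of all genes. ALDOA itself, lower in all 4 siALDOA libraries, was not called either (-1.12, SE 0.16, unadjusted p = 0.000907, adjusted p = 1), so the absence of calls does not show that these genes were unaffected. Within 90, within PANC-1 and for the difference between these effects it likewise called 0 of 9, with 0.0% of all genes called in each (33, 21 and 24 of all genes at an unadjusted p under 0.05). The log2 changes over both lines ran from -0.41 for LDHB (SE 0.313, adjusted p = 1) to 0.06 for PDK1 (SE 0.366), with a median of -0.11 against 0.01 for all tested genes.

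LDHB had the change farthest from 0, and its libraries went different ways. In 90 it was at 54.0% of NC in siALDOA 1 and at 24.2% in siALDOA 2, where the Poisson interval of siALDOA 2 ended below that of NC, but NC had no replicate. In PANC-1 it was at 57.7% of NC in siALDOA 1 and at 115% in siALDOA 2. LDHA was at 84.2% and 88.7% of NC in 90 and at 107% and 98.0% in PANC-1, with a change over both lines of -0.09 (SE 0.122) and a difference of 0.24 between the lines' effects (SE 0.302), none of them past the test.

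MPC1, MPC2 and PDHA1 lay below NC in all 4 siALDOA libraries. That is 3 of the 9 tested genes, beside 5.82% of all tested genes. Both siALDOA libraries of a line were set against the same single NC library, so the 4 comparisons are not independent. The shifts were small in several libraries. MPC1 was at 99.8% and 72.3% of NC in siALDOA 1 and 2 of 90 and at 91.9% and 98.3% in those of PANC-1. PDHA1 was at 88.9% and 87.2% in 90 and at 98.4% and 97.1% in PANC-1, and MPC2 at 91.5% and 95.2%, then 98.6% and 76.1%. None passed the test, with changes over both lines of -0.13 (SE 0.197), -0.11 (SE 0.119) and -0.15 (SE 0.158) in the order MPC1, PDHA1, MPC2.

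PDK3, left out by the filter on low values, lay above NC in all 4 siALDOA libraries, at 102% to 123% of NC. The remaining 6 genes went both ways. Of the 40 values of the 10 genes in siALDOA libraries, 26 were below NC. Counts of genes below NC were 7 of 10 in each siALDOA library of 90 and 6 of 10 in each of PANC-1. Median log2 changes of the 10 were -0.144 and -0.178 in siALDOA 1 and 2 of 90, against -0.022 and 0.002 for all tested genes. In PANC-1 they were -0.02 and -0.024, against 0.019 and 0.029. The matching counts over all tested genes were not made, and values of a line share its single NC library, so these counts are a description.

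On log2(FPKM + 1), SLC16A1 and PDK1 moved the most between siALDOA libraries, and in both genes the libraries split the same way. As a percent of NC, LDHB also ran widely, from 24.2% to 115% as given above. SLC16A1 was at 165% of NC in siALDOA 1 of 90 and at 161% in siALDOA 2 of PANC-1. In siALDOA 2 of 90 and siALDOA 1 of PANC-1 it was at 51.4% and 53.0%. PDK1 was at 198% and 145% of NC in the first 2 of these libraries and at 78.7% and 42.1% in the others.

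SLC16A3 and PDK2 went the opposite way in each of the 4 libraries. SLC16A3 was at 75.6% of NC in siALDOA 1 of 90 and at 82.3% in siALDOA 2 of PANC-1, against 111% and 104% in the others. PDK2 was at 72.9% and 84.9%, against 119% and 107%. The changes over both lines were -0.09 for SLC16A1 (SE 0.6), -0.12 for SLC16A3 (SE 0.205) and -0.07 for PDK2 (SE 0.239).

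Across tested genes with a known GC content, the median change from NC also went with that content. From low to high GC it went mostly down in siALDOA 1 of 90 and siALDOA 2 of PANC-1, and mostly up in siALDOA 1 of PANC-1. Among the eighth of tested genes lowest in GC, at 39.6% or less, the median log2 change from NC was 1.40 in siALDOA 1 of 90 and 0.56 in siALDOA 2 of PANC-1, and -1.02 in siALDOA 1 of PANC-1. Among the eighth highest in GC, at 61.2% or more, it was -0.27, -0.21 and 0.10 in the same order. In siALDOA 2 of 90 both ends were alike, at 0.12 and 0.11, and the lowest of 16 bins of GC content was at -0.27, around 45.1% GC. The longest transcripts of SLC16A1 and PDK1 hold 43.5% and 39.8% GC, and those of SLC16A3 and PDK2 62.7% and 59.8%, against a median of 49.6% for tested genes. Of the 16 other pathway genes tested, PDP1 (41.0%), LIPT1 (41.0%), DLAT (43.3%) and PDHX (43.5%) split in direction like SLC16A1. EMB (37.0%) and DLD (39.3%) did so except in siALDOA 2 of 90, and LIAS (40.4%), PDHB (44.6%) and PDP2 (44.9%) did not. PC (61.1%), BSG (61.6%), GPT2 (55.3%) and PKM (53.3%) split like SLC16A3, and LIPT2 (60.7%) did not. These were named after their values were seen. Within the group, MPC2 (42.2%), PDK3 (43.5%) and MPC1 (43.8%), also low in GC, did not split like SLC16A1. In siALDOA 1 of 90 their log2 changes were -0.122, 0.084 and -0.003. The bins around 41.9% and 43.45% GC had medians of 0.67 and 0.38 there. In siALDOA 2 of PANC-1 the genes were at -0.379, 0.006 and -0.02 and the bins at 0.455 and 0.359. In the other siALDOA libraries MPC1 and MPC2 lay below NC, as these bins did, and PDK3 above. With each library's trend removed by a smooth fit, the changes over both lines were -0.18 for SLC16A1, -0.15 for PDK1, -0.07 for SLC16A3 and -0.04 for PDK2, and limma called 0 of the 9 genes for siALDOA. The trend's part in the levels of single libraries was not tested.

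**Figure D4:**
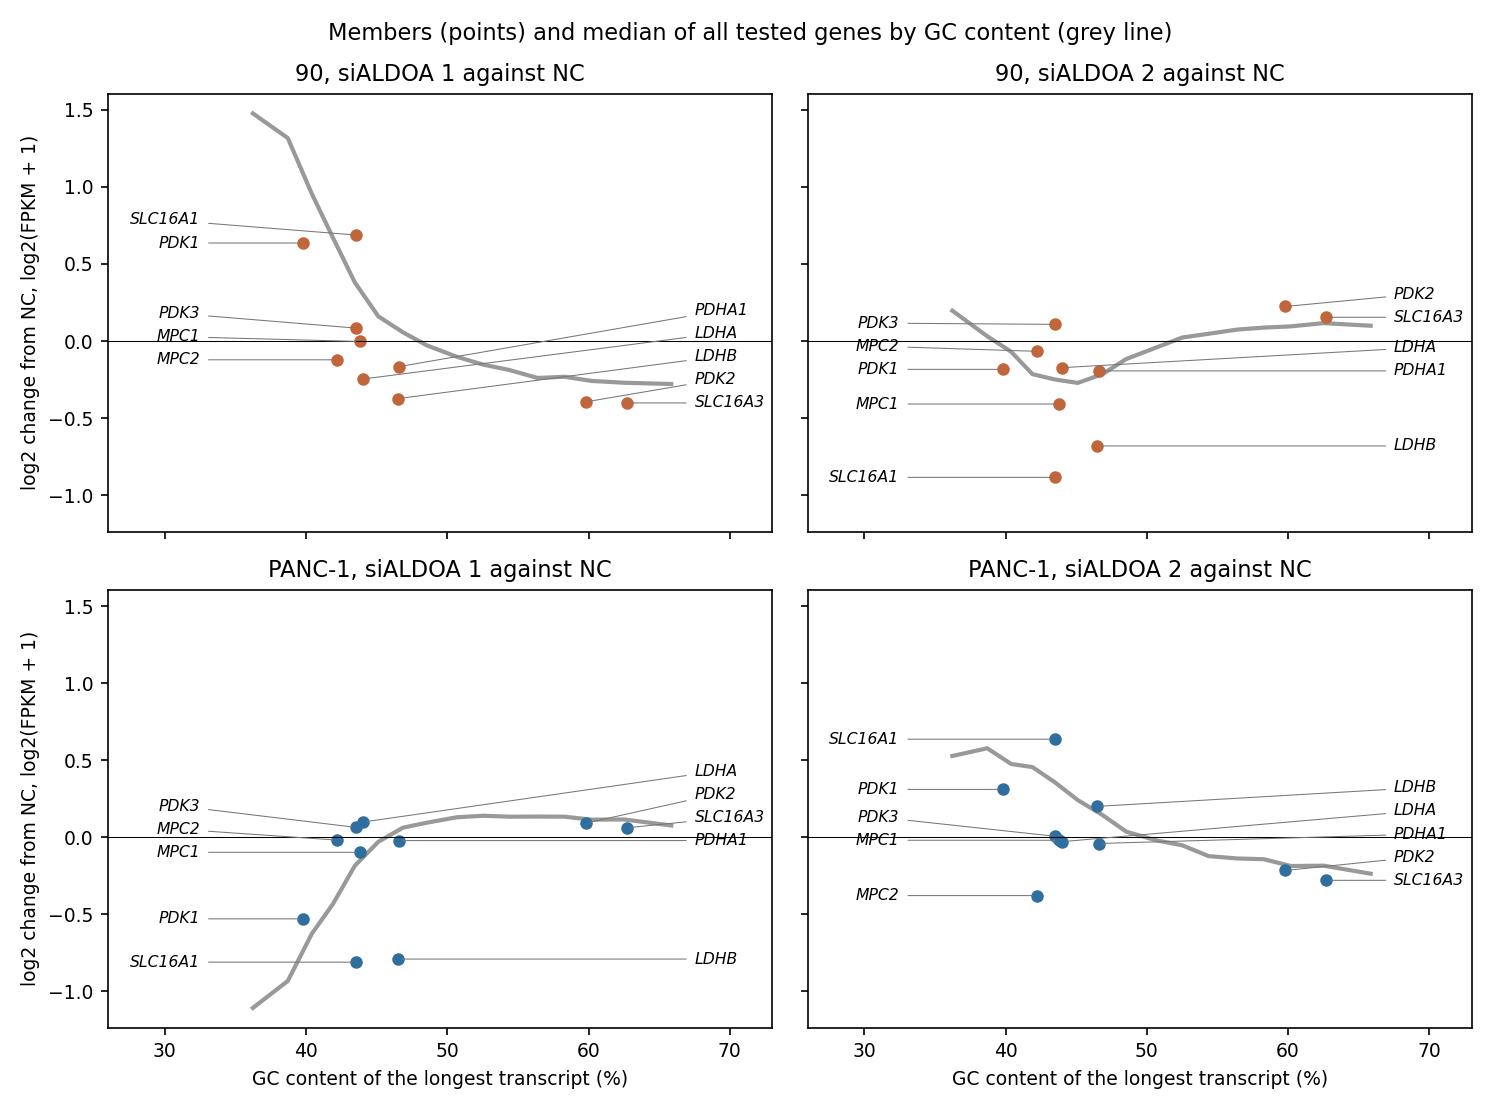
Change from NC on log2(FPKM + 1) against the GC content of the longest transcript, in percent, for the 10 genes (points) in each siALDOA library. The grey line is the median of tested genes with a known GC content, in bins of that content. SLC16A1 and PDK1 lie above 0 in siALDOA 1 of 90 and siALDOA 2 of PANC-1 and below 0 in the other panels, while PDK2 and SLC16A3 do the reverse.

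The make-up of each step was compared for siALDOA as well. The LDHB share was 2.38 percentage points lower than in NC, averaged over the lines, the SLC16A3 share 0.797 points lower, the MPC2 share 0.274 points higher and the PDK1 share 2.90 points higher. With the NC label permuted within each line, the exact permutation p-values were 0.778, 0.889, 1 and 0.778, where 9 choices allow no p under 0.111 (adjusted over the 4 shares, each 1).

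Of the 16 other pathway genes tested, 0 were called for siALDOA in any of these comparisons, and their median over both lines was 0.03 against 0.01 for all genes. The smallest p-values belonged to BSG, basigin, which brings SLC16A1 and SLC16A3 to the cell surface (-0.15, SE 0.191), and to LIPT2, an enzyme of lipoic acid transfer (-0.16, SE 0.224). DLD, the dihydrolipoamide dehydrogenase of the pyruvate dehydrogenase complex, and EMB split like SLC16A1 in siALDOA 1 of both lines, named here after their values were seen. EMB was at 1.59, 13.5 and 3.43 FPKM in NC, siALDOA 1 and siALDOA 2 of 90 and at 6.95, 1.30 and 14.0 FPKM in PANC-1, with 37.0% GC. DLD was at 3.40, 23.8 and 6.37 FPKM in NC, siALDOA 1 and siALDOA 2 of 90 and at 17.6, 3.13 and 27.4 FPKM in PANC-1, and its transcript holds 39.3% GC.

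Genes whose levels ran closest to LDHA and LDHB were sought among the 5807 genes that averaged 10 FPKM or more, by Pearson's r over the 6 libraries after each line's mean was removed. For LDHA they were AFG3L2, a mitochondrial protease (r = 0.996), SLC25A15, the mitochondrial ornithine carrier (0.994), and CYTB, mitochondrial cytochrome b (0.989), and 134 genes lay above 0.9. For LDHB they were CCL2, a chemokine (0.991), APOO (0.979) and PSMD6, a proteasome subunit (0.977), with 15 genes above 0.9. These are descriptions over few libraries that share these trends with GC content. For LDHB the values in 90 also rest on only 7 to 27 fragments a library.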

How the data were processed

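The authors deposited FPKM values per gene and library, with HISAT2, featureCounts and the build hg38 named, per the submitters' processing notes; no version, setting or strand use is given there. Of 41769 rows, 1 had no gene name, 28 symbols had become dates, and 4 rows sharing a symbol were left out. Values of short RNAs times their RefSeq lengths gave whole fragments for 96.4% to 96.9% of values up to 30 fragments (tolerance 0.03 of a fragment), which fixed the depths, 17.8 to 21.8 M fragments. A gene's fragments follow from the shortest length that makes all 6 values whole (tolerance 0.001). No count test was run, since the deposited unit is FPKM.

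Levels were analysed as log2(FPKM + 1), which understates changes of low genes. The 12589 genes averaging 1 FPKM or more were tested with limma 3.58.1 (R 4.3.3) with an intensity trend: a fit with terms for line and siALDOA (3 residual degrees of freedom) and a fit of 4 group means (2 residual degrees of freedom), in which a lone NC library is assumed to vary like the others. P-values were adjusted by Benjamini-Hochberg over all tested genes, two-sided, with calls under 0.05. The limma fits were tested on simulated data with large added shifts and independent noise, which does not cover smaller changes or noise shared between genes. GC content, found for 90.6% of tested genes, came from GENCODE release 29, a GRCh38 annotation like hg38.

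The 10 genes, the lists and the comparisons were chosen with earlier results of these data known. All 10 genes are named, with other pathway genes where called (or the 2 with the smallest p) and the 3 genes most like LDHA and LDHB. Alternatives were other pseudocounts, filters, scalings, a GC correction, a fit without the trend, a replicate block and leaving out libraries.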

Additional observations from a re-analysis of the deposited data

How the results depend on the processing

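For siALDOA, within the lines or over both, and for the difference between the lines' effects, 0 of the tested genes of the group were called under any alternative run; with no filter, 38 genes outside the group were called within 90 and 49 within PANC-1, and without siALDOA 1 of both lines 16 over both. Between the lines 4 of the 9 tested genes were called, and the number was 1 after median ratio scaling (3514 genes in all against 4877), 2 with the replicate block on the library number (3254 genes) and 2 without siALDOA 1 of both lines (7195 genes), and ranged from 2 to 5 when a library was left out in turn (2420 to 4107 genes). The numbers did not pair the libraries: the difference of siALDOA 1 less siALDOA 2 in 90 and PANC-1 had r = -0.86 across 12589 genes. With siALDOA 1 of 90 crossed with siALDOA 2 of PANC-1 and the reverse, chosen after seeing the data, 8 genes of the group and 7588 of all were called between the lines, and 0 for siALDOA. Changes that turned sign, none of them called, were those of siALDOA over both lines for LDHA (0.045 after quantile normalization, -0.21 to 0.034 with a library left out), SLC16A1 (-0.429 to 0.245 with a library left out), SLC16A3 (-0.235 to 0.003 with a library left out), PDK1 (-0.048 after quantile normalization, -0.15 after GC correction, -0.14 to 0.26 with a library left out) and PDK2 (-0.205 to 0.06 with a library left out, 0.004 without siALDOA 1 of both lines). Without siALDOA 1 of 90 and siALDOA 2 of PANC-1, also chosen after seeing the data, the siALDOA change was 0.11 for SLC16A3, -0.36 for PDK1 and 0.16 for PDK2. The difference between the lines turned to 0.16 for SLC16A1 and 0.14 for PDK1 without siALDOA 1 of both lines. The cause of these shifts was not tested. The depth left LDHB in 90 with 7 to 27 fragments a library.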
